A study of Mus musculus with 8 samples.

Results

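The regions described here are stretches of open chromatin that stood highest in the cMoP group of mouse bone marrow progenitors. A region was taken when its mean in the cMoP libraries was at least 10 CPM (the count in a region divided by the library's total over all regions, times 1000000) and at least 2.5 times the mean of each of the groups GMP-MoP, proNeu1 and proNeu2. This chose 679 of 61196 regions, or 1.11%. The regions were thus chosen by their cMoP CPM and its ratio to the other groups, so every value of cMoP against another group is a description and carries no test. The word "only" does not hold for them: all 679 had counts in GMP-MoP, where 251 (37.0%) reached a mean of 5 CPM, and they are called cMoP-high regions below.

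The study measured accessibility by ATAC-seq, in which the transposase Tn5 cuts open DNA, in 8 libraries of sorted mouse bone marrow progenitors, 2 for each of the groups cMoP, GMP-MoP, proNeu1 and proNeu2. Each tube received 5000 cells, and all samples carry the same tissue label, bone marrow. The sources used here give no strain, age, sex, treatment or sort gate. The series title places GMP-MoP on a differentiation path that starts from proNeu1, so the question for these regions is what level they have in GMP-MoP beside the proNeu groups. The labels call the 2 libraries of a group biological replicates but name no separate animals, and the p-values therefore reflect only how far these samples differ, which may be technical.

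In the field's usage, cMoP names the committed monocyte progenitor of the bone marrow, proNeu1 and proNeu2 name early steps of neutrophil development, and a GMP is a progenitor with both fates. Regions far from gene starts often act as enhancers, which bind lineage transcription factors and open or close as a fate is chosen. Gene starts, by contrast, tend to be open in many cell types of 1 lineage.

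Totals over the regions ran from 1388525 (GMP-MoP replicate 1) to 1907810 (cMoP replicate 1) counts. Replicates differed beyond counting noise in 3 groups, where the ratio of chi-square to its degrees of freedom was 1.30 for cMoP, 1.38 for GMP-MoP and 1.31 for proNeu1 over regions of at least 80 summed counts. The proNeu2 libraries had 1.01 there (chi-square p = 0.182) and 1.05 over all regions with a count (p = 1.41e-17), and were counted as 2 samples. Summed CPM over the 123 regions of neutrophil granule genes was 1637 to 1760 in the cMoP libraries, 1760 to 2022 in GMP-MoP and 2430 to 2751 in the proNeu libraries. Over the 164 regions of dendritic cell genes it was 2440 to 2505, 2074 to 2127 and 1685 to 1762, and over the 195 regions of monocyte surface genes 2957 to 3072, 2603 to 2740 and 2390 to 2488. Regions of the T and NK cell list (66) summed to 582 to 613 in cMoP, 556 to 568 in GMP-MoP and 515 to 547 in the proNeu libraries. Other lists did not follow that order. The 244 regions of stem and early progenitor genes were highest in GMP-MoP, at 3715 to 3935, with 3661 to 3663 in cMoP and 3190 to 3507 in the proNeu libraries, and the 370 of monocyte transcription factor genes had 6514 to 6884 in cMoP, 6585 to 6598 in GMP-MoP and 6781 to 6920 in the proNeu libraries. The B cell list (38) ran from 275 to 289 in cMoP, 315 to 321 in GMP-MoP and 279 to 310 in the proNeu libraries, and for the erythroid and megakaryocyte (39) and the mast cell, basophil and eosinophil lists (39) the 3 ranges overlapped. The part of such cells in the results was not tested.

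The gene starts among the cMoP-high regions are shown first, because a start ties a region to a gene more directly than distance does. Of the 657 cMoP-high regions on chromosomes of the start table, 10 (1.52%) held the whole 250 bases upstream of a RefSeq protein-coding gene start, against 15.2% of all such regions. They were at Ccl12, Clec4b1, Ppef2, Siglech, Gpr183, Plxnb2, Adam19, Arhgap22, Rgl1 and Ppp1r12b. Starts that lay outside every other gene interval are printed for Ccl12, a monocyte-attracting chemokine, Clec4b1, a C-type lectin receptor of myeloid cells, and Ppef2, a calcium-linked protein phosphatase. Each is the 250 bases before the start, 5′ to 3′ on the gene's strand, from RefSeq on GRCm38.p6, the assembly of mm10, and capitals mark the word of the interferon regulatory factors (IRF).
Ccl12 (chr11:82101595-82101844, plus strand): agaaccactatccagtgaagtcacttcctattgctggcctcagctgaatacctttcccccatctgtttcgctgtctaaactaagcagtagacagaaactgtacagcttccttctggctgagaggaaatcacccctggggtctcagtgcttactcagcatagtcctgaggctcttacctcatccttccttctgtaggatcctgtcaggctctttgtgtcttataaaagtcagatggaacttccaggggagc
Clec4b1 (chr6:123049712-123049961, plus strand): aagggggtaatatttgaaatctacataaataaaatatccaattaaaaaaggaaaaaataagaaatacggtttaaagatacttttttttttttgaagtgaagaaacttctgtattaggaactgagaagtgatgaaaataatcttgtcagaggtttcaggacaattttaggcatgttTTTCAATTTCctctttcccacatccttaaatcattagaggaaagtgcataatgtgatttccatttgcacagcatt
Ppef2 (chr5:92256279-92256528, minus strand): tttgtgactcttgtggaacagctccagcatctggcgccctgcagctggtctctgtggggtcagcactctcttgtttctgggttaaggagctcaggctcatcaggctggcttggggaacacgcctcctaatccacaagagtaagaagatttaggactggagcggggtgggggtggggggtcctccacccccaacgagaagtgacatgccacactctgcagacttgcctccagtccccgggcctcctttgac

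The IRF word, searched on either strand like the others, stood in 1 of the 10 starts, that of Clec4b1, and in 2.96% of 21263 RefSeq start windows of the same length. The PU.1 word GAGGAAGT, the composite ETS-IRF word (which overlaps the IRF word), the C/EBP word TTGCNNCAA and the AP-1 word TGANTCA were in 0 of the 10, against 2.23%, 2.16%, 1.51% and 6.13% of all windows. The RUNX word ACCACA was in 3 of 10 (12.4% of all), the E-box CACCTG in 2 (16.9%) and the KLF word CCACACCC in 1 (3.3%). A match is a run of letters and not a bound site.

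The region at the Ccl12 start had 18.9 and 14.2 CPM in the cMoP libraries, 4.32 and 5.25 in GMP-MoP, 0.660 and 0 in proNeu1 and 0.560 and 1.84 in proNeu2. At the Clec4b1 start the levels were 16.8 and 13.7 CPM in cMoP, 3.60 and 3.50 in GMP-MoP, 2.64 and 2.54 in proNeu1 and 0 and 2.45 in proNeu2. At the Ppef2 start they were 14.2 and 13.7 in cMoP, 6.48 and 3.50 in GMP-MoP, 2.64 and 1.91 in proNeu1 and 0 in both proNeu2 libraries. At these 3 starts both GMP-MoP libraries lay below both cMoP libraries and above all 4 proNeu libraries.

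Across the 679 regions the 4 groups stood in the order cMoP, GMP-MoP and then the proNeu groups. The median level was 13.6 and 15.3 CPM in the cMoP libraries, 3.60 and 4.66 in GMP-MoP, 1.32 and 1.27 in proNeu1 and 1.12 and 1.23 in proNeu2. GMP-MoP had a median of 0.316 of the cMoP level, proNeu1 0.0907 and proNeu2 0.0825. A median cMoP-high region held 26 and 29 counts in the cMoP libraries, 5 and 8 in GMP-MoP and 2 in each proNeu library. In proNeu1 180 of the regions, and in proNeu2 179, had fewer than 3 counts over both libraries, so differences between the proNeu groups at single regions were mostly not detectable at this depth.

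**Figure D1:**
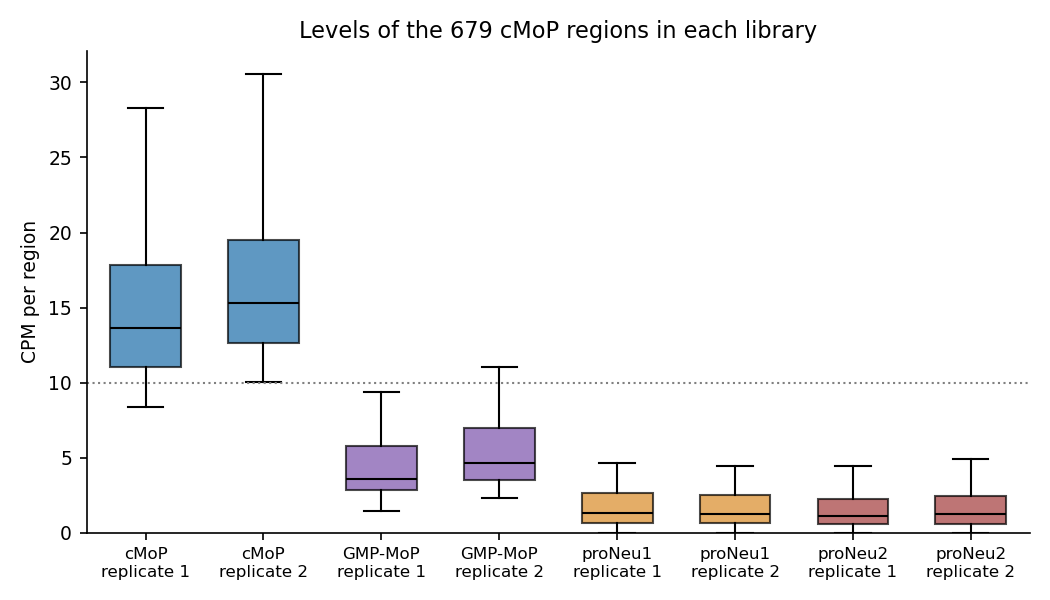
Levels of the 679 cMoP-high regions in each library, in CPM on a linear axis; boxes span the quartiles, the line is the median and whiskers run from the 5th to the 95th percentile, with regions outside them not drawn. The medians are 13.6 and 15.3 in cMoP, 3.60 and 4.66 in GMP-MoP and 1.12 to 1.32 in the proNeu libraries, and the dotted line is the 10 CPM that the choice used for the cMoP mean.

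The choice by GMP-MoP was the narrow one. Of the 27860 regions with at least 10 CPM in cMoP, 4692 had 2.5 times the level of both proNeu groups, and 4013 of those did not have it over GMP-MoP. By contrast 698 had 2.5 times the GMP-MoP level, and 97.3% of those were also over both proNeu groups. GMP-MoP was the highest of the other 3 groups in 645 of the 679. Many regions sat near the threshold: the ratio to the highest other group had a median of 3.16, lay under 3 in 298 and reached 4 in 155, and 700 regions outside the set had a ratio of 2 to 2.5. Just inside the fold threshold, the region chr1:151284835-151285644 had 15.8 CPM in cMoP and 6.31 in GMP-MoP (ratio 2.501), and that in Gpa33 46.5 and 18.6 (2.503). Just outside, a region near Slc37a2 had 11.6 and 4.63 (2.499), and chr4:13281092-13282129 15.8 and 6.31 (2.498). At the level threshold the lowest member had 10.2 CPM and the highest region outside had 9.998.

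How far the choice carried over was read in libraries that it had not used. With the choice made in the replicate 1 libraries alone, 939 regions passed. Of them 297 (31.6%) passed again in the replicate 2 libraries, against 1.58% of all regions. The 95% exact interval of 28.7 to 34.7 treats regions as independent and leaves out differences between libraries. In the unused replicate 2 libraries 91.2% of the 939 still had 2.5 times the proNeu1 level and 93.4% the proNeu2 level. Over GMP-MoP 35.3% had it. cMoP remained the highest group in 94.7%, with medians of 14.2 CPM in cMoP, 6.99 in GMP-MoP, 1.91 in proNeu1 and 1.84 in proNeu2. Made in replicate 2 and read in replicate 1, 969 passed. The regions that passed again were by construction the same 297 (30.7%), so this count is no second result. Of the 969, 90.3% were over proNeu1, 92.8% over proNeu2 and 46.5% over GMP-MoP. In the regions so chosen, the margin over the proNeu groups thus recurred at about 9 in 10. The full margin over GMP-MoP recurred at fewer than 5 in 10. Of the 939 regions 468 belonged to the cMoP-high set, and of the 969 regions 486 did. These shares therefore describe choices made in single replicates and not the cMoP-high set itself. In the libraries that chose them, the 939 had medians of 14.7 CPM in cMoP, 4.32 in GMP-MoP, 1.98 in proNeu1 and 1.68 in proNeu2. The 969 had 13.7 in cMoP and 4.08 in GMP-MoP where they were chosen, and 11.5 and 4.32 in the unused replicate 1 libraries. The smaller margin thus came with a higher GMP-MoP median in the first reading and mainly with a lower cMoP median in the second. In both choices GMP-MoP lay nearer to the threshold than the proNeu groups from the outset. Shares of all regions over each single group are not given here. The size of the set also moved with 2 libraries: it was 1063 without cMoP replicate 1 and 1086 without GMP-MoP replicate 2.

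The rule set the same ceiling for GMP-MoP, proNeu1 and proNeu2 and did not use the differences among them, so these were tested with edgeR's quasi-likelihood test over 47506 regions with Benjamini-Hochberg adjustment. Of the 679 members 678 passed the filter on low counts. For 570 this was only through their cMoP counts, which the rule required to be high. Those counts enter neither side of these comparisons. Against proNeu1, GMP-MoP was higher at 220 of the 678 and lower at 0, against 11.6% and 12.5% of all regions in the test. Against proNeu2 it was higher at 313 and lower at 0, against a background of 20% and 19.2%. With no filter, so that all 679 were tested, GMP-MoP was higher than proNeu1 at 217 (9.02% of all regions) and than proNeu2 at 295 (16.1%), and lower than proNeu2 at 1, in Cd9. Both comparisons share the GMP-MoP libraries. The shares over all regions come from regions not held to the rule's ceiling, so they are a background and not a like set. The median member held 4 counts in each proNeu group, and 19 members in proNeu1 and 17 in proNeu2 reached 5 CPM. Few members could therefore be called lower in GMP-MoP, and the 0 is not read against the 12.5% and 19.2%. The median log2 change was 1.52 against proNeu1 and 1.66 against proNeu2 (1.50 and 1.65 with the 34 members at 0 counts in proNeu1, and the 34 in proNeu2, set to a floor of 3 counts), and it was 0.01 and 0.04 over all tested regions. Both GMP-MoP libraries lay above all 4 proNeu libraries by CPM in 475 of the 679, or 70.0%, against 30% of all regions.

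In a fit of the 6 libraries without cMoP 108 members passed the filter, and with the proNeu libraries alone 12 of these would have passed. Most of the 108 thus entered with the help of their GMP-MoP counts, and their calls, 68 over proNeu1 (12% of all regions in that fit) and 78 over proNeu2 (20.3%), are given as values only. DESeq2's Wald test called 30 and 86, with backgrounds of 2.24% and 7.34%. The counts also rested on single libraries. Over proNeu1 they were 93 without GMP-MoP replicate 2, 124 without proNeu1 replicate 1 and 125 without proNeu1 replicate 2, and the share of all regions called higher fell as well, to 4.72%, 6.67% and 5.96%. Over proNeu2 they were 135, 174 and 190 without GMP-MoP replicate 2, proNeu2 replicate 1 and proNeu2 replicate 2, with backgrounds of 10.6%, 11.5% and 12.6%. With the proNeu2 libraries summed to 1 sample, 213 and 279 were called (10.3% and 16.7% of all).

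Between proNeu2 and proNeu1 no cMoP-high region passed the test, and 0.0758% of all tested regions did. At an unadjusted p under 0.05 there were 50 of 678 (7.37%), against 9.36% of all tested regions, and DESeq2 called 0. The median log2 change was -0.12. The median standard error of 1.00 gives a 95% half-width of 1.97 on the log2 scale, so changes of several fold at single regions were within the error.

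**Figure D2:**
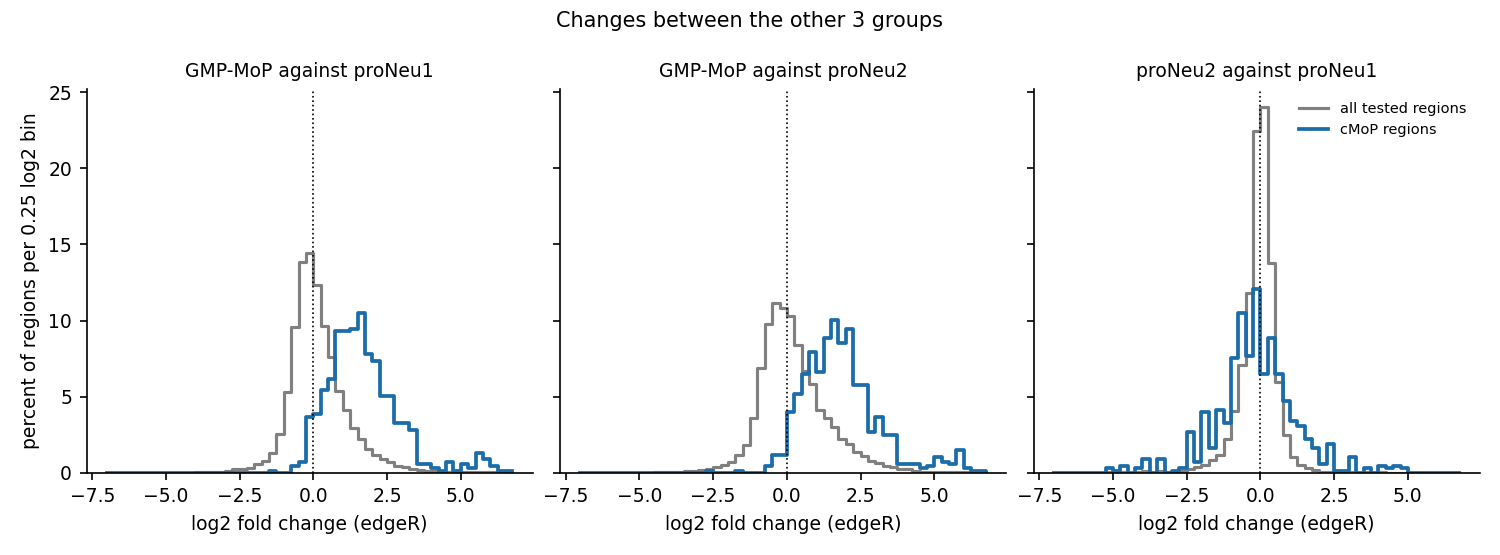
Distribution of the edgeR log2 fold change in the 3 comparisons among GMP-MoP, proNeu1 and proNeu2, as the percent of regions in each 0.25-wide bin. The choice of regions capped each of these groups against cMoP but did not use the differences among them. Blue is the 678 tested cMoP-high regions, 570 of which passed the filter only with their cMoP counts, and grey all 47506 tested regions. The blue curves have medians of 1.52 and 1.66 for GMP-MoP against proNeu1 and proNeu2, and of -0.12 for proNeu2 against proNeu1; regions with 0 counts in a proNeu group, such as those in Mms22l and Fat3, lie in the small rise near 6.

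The strongest members were open at 38 to 54 CPM on average in cMoP. The highest, chr11:113132927-113134057, has no protein-coding gene within 50 kb. It had 59.8 and 47.5 CPM in cMoP, 12.96 and 16.3 in GMP-MoP, 5.28 and 3.18 in proNeu1 and 8.40 and 6.74 in proNeu2. GMP-MoP passed the test over proNeu1 (log2 1.68, SE 0.43, adjusted p = 0.00136) but not without proNeu1 replicate 2 (adjusted p = 0.0575), and it did not pass over proNeu2 (log2 0.82, adjusted p = 0.0582).

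A region 20765 bp from Spata7, a gene of photoreceptor cilia, had 42.5 and 45.3 CPM in cMoP, 14.4 and 15.7 in GMP-MoP, 0.660 and 1.91 in proNeu1 and 2.80 and 0.613 in proNeu2. GMP-MoP was higher there than proNeu1 (log2 3.36, SE 0.56, adjusted p = 5.96e-07) and proNeu2 (log2 2.92, SE 0.51, adjusted p = 5.33e-07). In Fbl, which encodes the nucleolar methyltransferase fibrillarin, the levels were 30.9 and 46.4 CPM in cMoP, 8.64 and 13.4 in GMP-MoP, 1.98 and 0 in proNeu1 and 0.560 and 2.45 in proNeu2 (over proNeu1 with 3 counts, a ratio of 11.6, 95% counting interval 3.66 to 59.0, adjusted p = 2.10e-05; over proNeu2 log2 2.75, adjusted p = 3.16e-05). The region chr14:48896159-48897700, with no gene within 50 kb, had 28.3 and 48.0 CPM in cMoP, 9.36 and 19.8 in GMP-MoP, 1.32 and 1.27 in proNeu1 and 0 and 0.613 in proNeu2. GMP-MoP was higher there than proNeu1 (log2 3.36, adjusted p = 9.36e-07) and than proNeu2, whose libraries held 1 count (ratio 51.7, 8.84 to 2086, adjusted p = 5.63e-10).

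Among the other strong members, the region near Tox3, a gene of the HMG-box family, had 46.1 and 46.4 CPM in cMoP, 19.5 and 15.7 in GMP-MoP and 1.84 to 6.72 in the proNeu libraries, and GMP-MoP was higher than both proNeu groups (adjusted p = 0.000146 and 6.40e-05). The region in Nsmaf, an adaptor of the tumour necrosis factor receptor, had 37.2 and 52.2 CPM in cMoP, 16.6 and 14.0 in GMP-MoP, 7.26 and 3.18 in proNeu1 and 1.12 and 3.06 in proNeu2. Its call over proNeu2 held in every alternative (log2 2.71, adjusted p = 1.65e-06), while that over proNeu1 (adjusted p = 0.00507) ended with DESeq2 (0.101) and without proNeu1 replicate 2 (0.179). Gpa33 showed another pattern. Its region had 47.7 and 45.3 CPM in cMoP, 11.5 and 25.6 in GMP-MoP, 14.5 and 21.6 in proNeu1 and 11.2 and 9.81 in proNeu2, so the GMP-MoP and proNeu1 libraries overlapped (log2 -0.03, SE 0.29, adjusted p = 0.956).

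Members with the largest ratio of cMoP to the highest other group were mostly weak in every other group. The region near Cd2ap, an adaptor between receptors and the actin cytoskeleton, had 19.4 and 36.9 CPM in cMoP, 2.88 and 3.50 in GMP-MoP, 0.660 and 3.82 in proNeu1 and 1.12 and 0.613 in proNeu2, a ratio of 8.83. The region in Zbtb46, the transcription factor gene of classical dendritic cells, had 21.5 and 16.3 CPM in cMoP, 2.16 and 2.91 in GMP-MoP, 0.660 and 1.91 in proNeu1 and 0.560 and 3.68 in proNeu2, a ratio of 7.46. At both the GMP-MoP and proNeu libraries overlapped and no difference among them passed the test. The other 8 of the 10 largest ratios, 7.41 to 8.68, lay at Nav1, Klrb1b, Dock1, Tnpo1, Fmnl2, Cop1, Camk1d and Gm4925 and rested on 4 or 5 counts in the highest other group. Dock1, a Rac exchange factor, and Fmnl2, a formin, act on the actin cytoskeleton.

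Some members were detected in GMP-MoP and had no count in a proNeu group. In Mms22l, a replication fork repair gene, the region had 16.2 and 26.4 CPM in cMoP, 6.48 and 6.99 in GMP-MoP and 0 in all 4 proNeu libraries, so GMP-MoP was at least 6.94-fold higher than proNeu1 and at least 7.67-fold higher than proNeu2 when proNeu is set to 3 counts over both libraries (adjusted p = 3.25e-05 and 6.48e-06). In Fat3, a protocadherin gene, it had 29.4 and 21.6 CPM in cMoP, 6.48 and 5.25 in GMP-MoP and again 0 in all 4 proNeu libraries, at least 6.04-fold and 6.68-fold (adjusted p = 0.000116 and 2.67e-05). Against proNeu1 the bounds were 8.51-fold near Scgb2b26, 7.24-fold in the dynein gene Dnah12 and 5.67-fold at chr14:17569204-17569872. Against proNeu2 they were 8.83-fold near Klhl25, a substrate adaptor of a ubiquitin ligase, 5.94-fold in the serine protease gene Tmprss2 and 5.68-fold at Ppef2. The regions in Fat3 and Tmprss2, at Ppef2 and at chr14:17569204-17569872 passed the filter only with their cMoP counts and were not tested in the fit without cMoP. In the alternatives that tested them, no filter among them, all of these calls against a group with no counts held. Against the proNeu group that had counts, some calls ended with DESeq2. These lay near Scgb2b26 (adjusted p = 0.0797) and Klhl25 (0.0745), in Tmprss2 (0.138) and at chr14:17569204-17569872 (0.0581). The calls near Scgb2b26 and in Tmprss2 also ended when certain single libraries were left out. The Dnah12 call over proNeu2 held in every alternative that tested it.

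Gene lists of cell types and pathways held few of the members. In all 25 members (3.68%) were linked by distance to 23 genes of 15 lists. The share of all regions linked to these lists was 3.58%, close to that of the members. The dendritic list had 6 of its 164 regions in the set, the monocyte surface list 4 of 195, the inflammatory and interferon lists 3 of 201 and 3 of 78, and the lysosome, pattern recognition, adhesion and monocyte transcription factor lists 2 each, of 135, 181, 279 and 370. The erythroid and megakaryocyte list had 1 of 39. There were 0 among the regions of neutrophil granule genes (123), stem and early progenitor genes (244), B cell (38), T and NK cell (66), mast cell, basophil and eosinophil (39) and housekeeping genes (41). Of the 25, 3 were higher in GMP-MoP than in proNeu1 (12%, against 11.6% of all tested regions) and 7 than in proNeu2 (28.0%, against 20%), so the first share was near that of all regions.

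At dendritic cell genes, the region at the start of Siglech, a lectin of plasmacytoid dendritic cells, had 23.6 and 29.0 CPM in cMoP, 9.36 and 9.32 in GMP-MoP, 3.96 and 3.82 in proNeu1 and 1.68 and 2.45 in proNeu2. GMP-MoP was higher than proNeu2 (log2 2.02, SE 0.55, adjusted p = 0.00162), and over proNeu1 the difference did not pass (log2 1.14, adjusted p = 0.0732). Cd40, the costimulatory receptor of antigen-presenting cells, held 2 members with different patterns. The one at its gene end had 21.0 and 22.1 CPM in cMoP, 9.36 and 7.58 in GMP-MoP, 1.98 and 4.45 in proNeu1 and 2.80 and 1.23 in proNeu2 (over proNeu2 log2 1.86, adjusted p = 0.00508; 0.0715 with DESeq2 and 0.101 without proNeu2 replicate 2). The one in its body had 8.91 and 15.3 in cMoP, 0 and 1.75 in GMP-MoP, 1.32 and 1.27 in proNeu1 and 1.68 and 3.68 in proNeu2, with GMP-MoP inside or below the proNeu range (below proNeu2 with loess offsets, adjusted p = 0.0443). The region in Tcf4, a transcription factor gene of plasmacytoid dendritic cells, had 15.2 and 9.49 CPM in cMoP, 2.88 and 2.33 in GMP-MoP and 0.560 to 1.84 in the proNeu libraries. That in Ciita, the activator of MHC class II genes, had 11.0 and 9.49 in cMoP, 2.16 and 5.25 in GMP-MoP and 3.36 to 4.29 in the proNeu libraries.

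Monocyte and macrophage receptor genes with a member were Marco, a scavenger receptor, with 2, Slamf7, a leukocyte surface receptor, and Mertk, a receptor for apoptotic cells. The stronger Marco region had 15.2 and 13.2 CPM in cMoP, 3.60 and 6.41 in GMP-MoP, 2.64 and 1.27 in proNeu1 and 2.24 and 1.23 in proNeu2. The Slamf7 region had 12.1 and 13.2 in cMoP, 1.44 and 4.08 in GMP-MoP and 0.560 to 1.98 in the proNeu libraries, and the Mertk region 9.96 and 11.1, 0 and 2.91, and 0 to 1.27. No difference among the other 3 groups passed at these 4 regions. The same held at the monocyte transcription factor genes Etv3, an ETS-family factor (13.6 and 12.7 CPM in cMoP, 5.76 and 2.33 in GMP-MoP, 1.68 to 4.45 in the proNeu libraries), and Pparg, a nuclear receptor of macrophage lipid metabolism (13.1 and 11.1, 1.44 and 3.50, 0.660 to 3.06).

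Of the 3 members at inflammatory genes, that in Nfkb1, which encodes the p105 and p50 forms of NF-kB, was the highest. It had 19.4 and 27.4 CPM in cMoP, 7.92 and 10.5 in GMP-MoP, 0 and 1.91 in proNeu1 and 1.12 and 0 in proNeu2. With 29 counts in GMP-MoP, 3 in proNeu1 and 2 in proNeu2, GMP-MoP was higher by a ratio of 9.62 (95% counting interval 2.98 to 49.3, adjusted p = 0.000234) and 15.96 (4.04 to 138, adjusted p = 1.14e-05), and both calls held in each alternative. The region near Ptgs2, the gene of cyclooxygenase 2, had 12.6 and 12.1 CPM in cMoP, 2.16 and 6.99 in GMP-MoP, 0 and 1.27 in proNeu1 and 0.560 and 0 in proNeu2. GMP-MoP was higher than proNeu1 (ratio 7.46, 1.73 to 67.2, adjusted p = 0.0204) and proNeu2 (16.5, 2.54 to 695, adjusted p = 0.00240). Without GMP-MoP replicate 2 the adjusted p was 0.502 and 0.219, with DESeq2 0.210 and 0.0877, and over proNeu1 it was 0.209 without proNeu1 replicate 1 and 0.0817 with loess offsets. This region, and those near Lgmn and of Gbp3 and Ank1 described next, passed the filter only with cMoP counts, and their calls held with no filter. The region near Ccl2, the main chemokine for CCR2, had 9.44 and 11.6 CPM in cMoP, 0.720 and 2.33 in GMP-MoP and 0 to 0.660 in the proNeu libraries, with no difference past the test.

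At lysosome genes the members were near Lgmn, the cysteine protease legumain, and in Gpnmb, a glycoprotein of lysosomes and melanosomes. The Lgmn region had 11.5 and 14.2 CPM in cMoP, 2.88 and 4.66 in GMP-MoP, 0.660 and 0 in proNeu1 and 1.68 and 0.613 in proNeu2. GMP-MoP was higher than proNeu1 there (12 counts against 1, ratio 11.9, 1.77 to 510, adjusted p = 0.0193), but not with DESeq2 (0.211), loess offsets (0.0652) or without proNeu1 replicate 2 (0.187) or GMP-MoP replicate 2 (0.182). The Gpnmb region had 19.9 and 20.03 CPM in cMoP, 8.64 and 6.99 in GMP-MoP, 1.98 and 4.45 in proNeu1 and 1.68 and 3.06 in proNeu2 (over proNeu2 log2 1.56, adjusted p = 0.0187; 0.133 with DESeq2, 0.0592 with loess offsets, 0.199 without proNeu2 replicate 1 and 0.101 without GMP-MoP replicate 1).

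Interferon genes with a member were Usp18, which removes ISG15 from proteins, Gbp3, an interferon-induced GTPase, and Ifnar1, a type I interferon receptor chain. The Gbp3 region had 13.1 and 15.8 CPM in cMoP, 5.04 and 4.66 in GMP-MoP, 2.64 and 0.636 in proNeu1 and 0.560 and 1.23 in proNeu2. GMP-MoP was higher than proNeu2 (15 counts against 3, ratio 5.50, 1.56 to 29.7, adjusted p = 0.0170), a call that ended with DESeq2 (0.127) and loess offsets (0.0606) and without proNeu2 replicate 1 (0.159), GMP-MoP replicate 1 (0.0571) or GMP-MoP replicate 2 (0.0627). The Usp18 region had 19.4 and 20.6 CPM in cMoP, 7.20 and 6.99 in GMP-MoP and 3.06 to 8.58 in the proNeu libraries, where GMP-MoP lay inside the proNeu range. The Ifnar1 region had 10.5 and 15.8, 5.76 and 4.08, and 0.660 to 2.80 in the proNeu libraries, with both GMP-MoP libraries between those of cMoP and the proNeu groups.

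The remaining listed members were at Ly96 and Ly86, the partners of the receptors TLR4 and RP105, Selplg, the selectin ligand PSGL-1, Cd9, a tetraspanin, and Ank1, erythroid ankyrin. The Selplg region was the highest listed one, with 32.5 and 34.8 CPM in cMoP, 5.76 and 11.1 in GMP-MoP, 7.92 and 7.63 in proNeu1 and 3.36 and 4.90 in proNeu2, so GMP-MoP and proNeu1 overlapped (log2 0.04, adjusted p = 0.955). The Ank1 region had 21.5 and 24.8 CPM in cMoP, 4.32 and 5.83 in GMP-MoP, 2.64 and 1.91 in proNeu1 and 1.68 and 0 in proNeu2. GMP-MoP was higher there than proNeu2 (16 counts against 3, ratio 5.87, 1.68 to 31.4, adjusted p = 0.0102; 0.0933 with DESeq2, 0.197 without proNeu2 replicate 2 and 0.108 without GMP-MoP replicate 2).

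Cd9 ran against the usual order. The member at one end of the gene had 14.7 and 13.2 CPM in cMoP, 0 and 0.583 in GMP-MoP, 0.660 and 1.27 in proNeu1 and 2.24 and 2.45 in proNeu2, with GMP-MoP the lowest group (over proNeu2 log2 -2.73, SE 1.17, adjusted p = 0.0516; 0.0492 with no filter, 0.0140 with loess offsets, and 0.0447 and 0.0451 without either proNeu1 library). The strongest region at an end of the same gene, which is no member, had cMoP as the lowest group. Its means were 10.5 CPM in cMoP, 19.1 in GMP-MoP, 24.3 in proNeu1 and 35.1 in proNeu2.

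**Figure D3:**
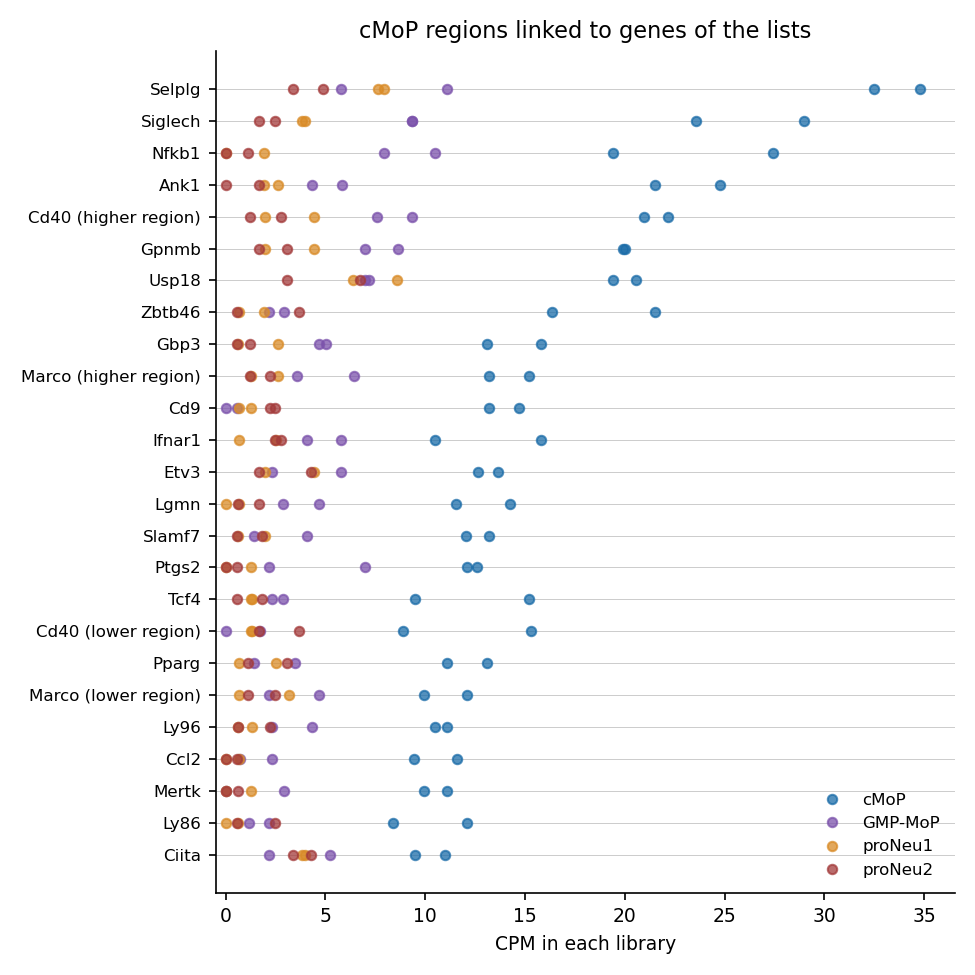
CPM in each library for the 25 cMoP-high regions linked to listed genes, ordered by cMoP mean, with 2 points per group and each gene named on the axis. The cMoP points lie to the right in every row, which the choice of regions fixes. GMP-MoP lies apart from the proNeu points at Nfkb1 and Siglech, among them at Usp18 and on both sides of them at Ciita.

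Most members stood alone: 91 of the 679 (13.4%) lay within 50 kb of another and 37 within 10 kb, with a median distance of 720400 bp to the next. There were 36 runs of 2, 5 of 3 and 1 of 4. The run of 4 spanned chr5:53279000-53315356, beside Smim20, which encodes a small mitochondrial protein. Its first region, at the gene end, had 15.7 and 16.9 CPM in cMoP, 4.32 and 3.50 in GMP-MoP, 0 and 0.636 in proNeu1 and 3.92 and 1.84 in proNeu2. The second had 13.6 and 26.4 in cMoP, 3.60 and 8.74 in GMP-MoP and 0 to 1.27 in the proNeu libraries, and the third 13.1 and 21.1, 3.60 and 8.16, and 0.613 to 1.68. The fourth, about 36.0 kb from the start of the run, had 21.0 and 23.2, 3.60 and 4.08, and 0.613 to 2.24. The stronger region at the other end of Smim20, which is no member, was level across groups at 50.5, 54.8, 49.5 and 55.9 CPM in cMoP, GMP-MoP, proNeu1 and proNeu2.

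**Figure D4:**
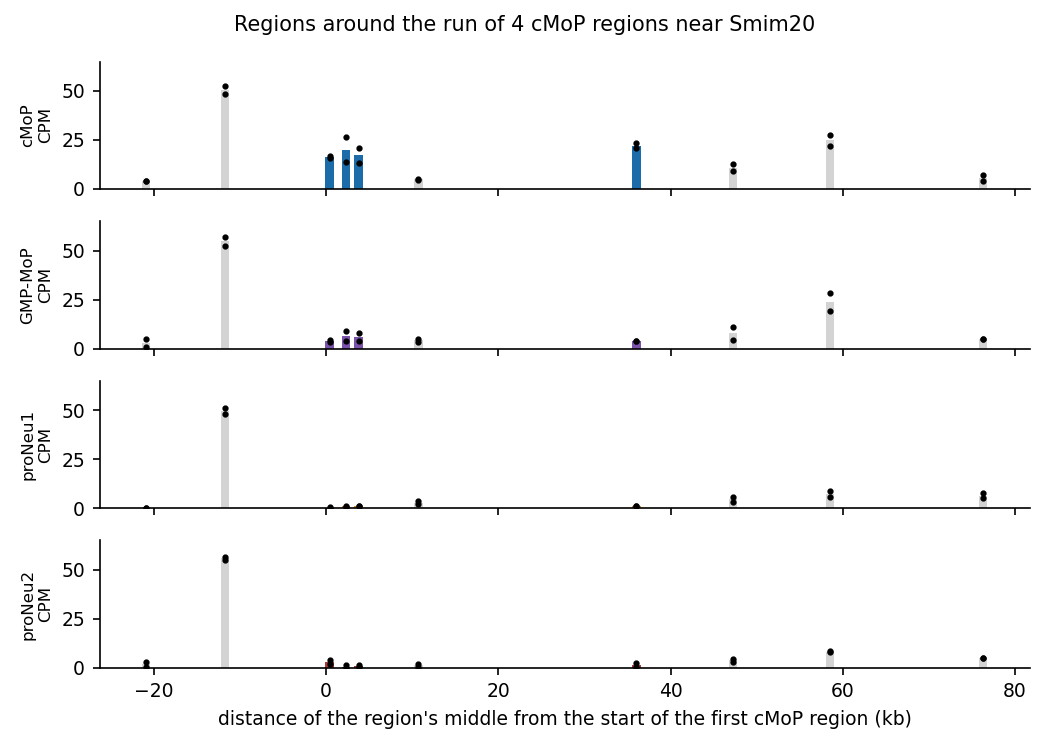
Regions around the run of 4 near Smim20, by distance in kb from the start of the first of them; bars are the group mean in CPM, dots the 2 libraries, coloured bars the 4 cMoP-high regions and grey bars the other 6 regions in the window. The coloured bars stand at 16.3 to 22.1 CPM in cMoP and under 7 in the other groups, while the tall grey bar at -11.7 kb is near 50 CPM in all 4.

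Ank2, the gene of ankyrin B, also held 4 members, over a longer stretch and in 2 pairs. They had 19.4 and 14.8, 30.9 and 14.8, 9.44 and 19.0, and 19.9 and 19.5 CPM in the cMoP libraries. In GMP-MoP they had 5.04 and 8.16, 5.76 and 10.5, 5.04 and 4.66, and 4.32 and 8.16, and in the 4 proNeu libraries none of them exceeded 1.68. At each of the 4 the groups cMoP and GMP-MoP lay above all proNeu libraries. Genes with 3 members were Lpgat1, a phospholipid acyltransferase, Ptpro, a receptor-type phosphatase, Dmac1 and Rabgap1l. In Lpgat1 the strongest had 27.8 and 29.0 CPM in cMoP, 10.8 and 8.16 in GMP-MoP, 1.32 and 5.09 in proNeu1 and 6.72 and 3.68 in proNeu2, and in Ptpro 17.8 and 22.1, 8.64 and 6.41, 4.62 and 4.45, and 5.04 and 1.84.

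By position the members lay away from gene ends. Of the 679, 26 (3.83%) were within 1 kb of either end of a protein-coding gene in the RefSeq table of GRCm38.p6, 309 (45.5%) in a gene body and 344 (50.7%) outside genes. Over all regions the shares were 21.1%, 41.6% and 37.3%, and over the regions with at least 10 CPM in cMoP they were 36.6%, 33.4% and 30.1%. The 4013 regions over both proNeu groups but not over GMP-MoP were closer to the members, with 6.65%, 46.2% and 47.1%. No protein-coding gene lay within 50 kb of 24.0% of the members, against 11.9% of all regions. Members were 812 bp wide in the median, against 832 bp for all regions and 1136 bp for those with at least 10 CPM in cMoP. Chromosome 1 held 75 members, 11.0% against 7.28% of all regions, and chromosome 15 held 11, 1.62% against 3.99%. These shares are descriptions, as neighbouring regions are not independent.

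**Figure D5:**
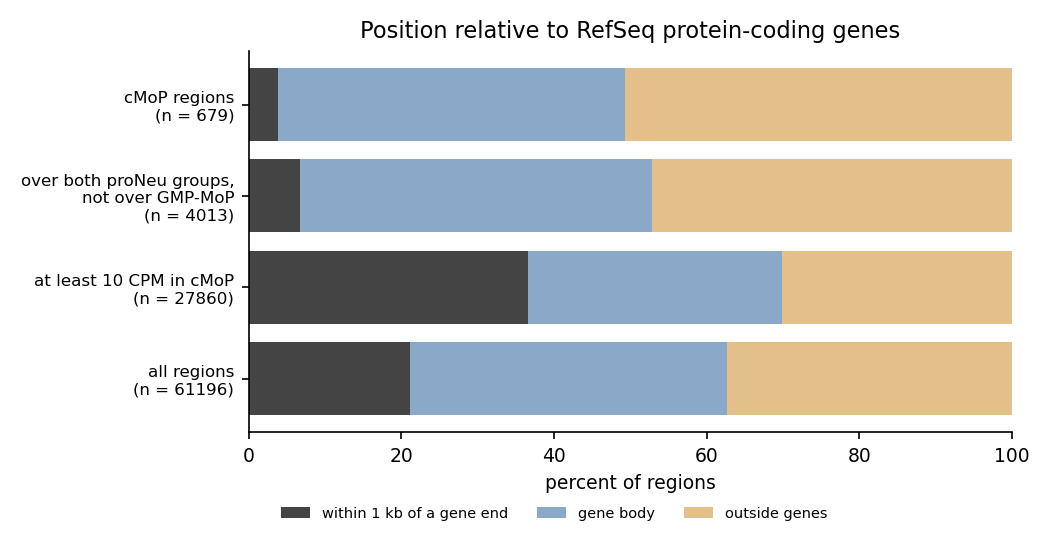
Percent of regions within 1 kb of a gene end, in a gene body and outside genes, for the cMoP-high regions, the regions over both proNeu groups but not over GMP-MoP, the regions with at least 10 CPM in cMoP and all regions, with the number of regions beside each bar. Gene ends take 3.83%, 6.65%, 36.6% and 21.1% of the bars.

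Other regions at the same genes lay closer together in cMoP and GMP-MoP than in cMoP and the proNeu groups. The 516 members with a gene within 50 kb were linked to 475 genes, 442 of them with 1 member. The 3493 other regions of these genes had a median log2 ratio of cMoP to GMP-MoP of 0.12 (0.5 CPM added to both), against -0.01 over all non-member regions with a gene, and 0.07 to 0.19 when 1 library of either group was left out. For cMoP to proNeu1 the median was 0.48, against 0.08 over all such regions, and for cMoP to proNeu2 0.66, against 0.16. Members were left out of these regions, which removes nearly every region at 2.5 times the GMP-MoP level but not those that are so over the proNeu groups alone. Of the 475 genes, 276 had a non-member region of at least 10 CPM in cMoP at a gene end. At the strongest of these, 251 genes (90.9%) had cMoP and GMP-MoP within 1.5-fold of each other, against 95.5% of the 9709 such genes in all. Within 1.5-fold of proNeu1 were 71.0% (72.0% of all) and of proNeu2 62.0% (61.5%), while cMoP was at least 2.5-fold over proNeu1 at 2.54% (2.45% of all) and over proNeu2 at 10.9% (5.36%). At Ly96, for example, the strongest gene end region had 43.1, 44.3, 38.3 and 38.5 CPM in cMoP, GMP-MoP, proNeu1 and proNeu2, while the member 48599 bp away had 10.5 and 11.1 in cMoP, 4.32 and 2.33 in GMP-MoP and 0.613 to 2.24 in the proNeu libraries. At Ccl2 and Slamf7 the gene end region was also higher in cMoP, with 25.8 against 12.9 and 23.7 against 11.3 CPM in GMP-MoP.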

How the data were processed

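Whole-number counts per region were deposited by the authors for 8 ATAC-seq libraries over 1 common set of regions. The submitters' processing notes name the build mm10, edgeR 3.32.1, HOMER 4.11 and Bowtie2 2.3.5.1, with no role. Duplicate removal, Tn5 shifting and the merging of regions bear on the counts and are not described in the sources used. CPM used the totals over the regions. Tests used edgeR 4.0.16 under R 4.3.3 (TMM, filterByExpr with a minimum count of 10, robust quasi-likelihood fit, 1 mean per group, 8 libraries), with calls at an adjusted p under 0.05, and the script was tested on simulated data. SE is the log2 change divided by the square root of F. Alternatives were DESeq2 1.42.0, other scalings and filters, a replicate block and leaving out each library. Regions were linked to the nearest RefSeq protein-coding interval within 50 kb, which does not show regulation. Regions and gene lists were chosen with earlier results of these data known. Named were the 10 members highest in level and the 10 highest in ratio, members at listed genes (up to 4 a list), the 5 largest called changes per comparison, the 5 genes with most members and threshold neighbours. Ccl12, Clec4b1, Rabgap1l, Ciita, the second Cd40 region, Fam71a and the other starts were named after their values were seen. No genome was used, so member sequences were read at gene starts alone.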

Additional observations from a re-analysis of the deposited data

How the results depend on the processing

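The set held 755 regions with TMM-scaled CPM (671 of the 679 among them), 1379 at 2 times and 155 at 4 times each other group. It held 1648 at 5 CPM, 131 at 20 CPM and 218 when each cMoP library had to pass over each other library. Leaving out 1 library gave 631 to 1086 regions, with 463 to 675 of the 679 among them. The members higher in GMP-MoP than in proNeu1 numbered 30 with DESeq2, 68 in the fit without cMoP, 147 with loess offsets, 254 with total counts, and 93 to 218 when 1 library was left out and the lone one was assumed to vary like the other groups. Over proNeu2 the members called numbered 86 with DESeq2, 78 without cMoP, 201 with loess offsets (199 higher and 2 lower, in Cd9 and Cd40), 348 with total counts and 135 to 307 when 1 library was left out. Without GMP-MoP replicate 1 the region of Fam71a was lower in GMP-MoP than in proNeu2 (adjusted p = 0.0399). The count between proNeu2 and proNeu1 was 0 in every alternative run. Total counts moved the median of all tested regions from 0.01 to 0.14 against proNeu1 and from 0.04 to 0.19 against proNeu2. The backgrounds were then 14.5% higher and 8.55% lower, and 24.4% and 14.2%, and the members' medians were 1.65 and 1.81. With loess offsets the backgrounds were 9.87% higher and 9.39% lower against proNeu1, and 16.6% and 17.9% against proNeu2. The members' medians fell to 1.16 and 1.21. With the replicate block, 220 and 308 members were called, and 1 call at a named member ended, at Dmac1 over proNeu2 (adjusted p = 0.0541). Deviations of libraries with the same replicate number correlated at -0.011 to 0.0793, highest for cMoP with GMP-MoP. Counting noise lowers such correlations, so they do not settle whether the numbers pair the samples. Of 59 calls at named members, 26 held in every alternative that tested them (21 of these also entered the fit without cMoP and 5 did not), 29 ended with DESeq2 and 29 without at least 1 library. The 29 calls at regions that the fit without cMoP did not test all held with no filter. Gene ends held 6.04% of members at 2 kb, and 58.6% were linked within 10 kb in place of 76.0%. The median log2 ratio of cMoP to GMP-MoP at other regions of the same genes was 0.15 with TMM and 0.0726 to 0.189 when 1 library was left out. The share passing again in unused libraries was 33.2% with TMM. Apart from counts that fewer samples or a smaller tested set lower by construction, the cause of each change was not tested.

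Depth limits single regions most in the proNeu groups, where 3 counts over a group are 0.971 CPM in proNeu1 and 0.878 in proNeu2. Intervals of count ratios and floors cover counting error only, since PCR reads are not independent molecules.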
